A study of Mus musculus with 16 samples.

Results

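Replacement histone variants are encoded by genes outside the large histone clusters. The 10 genes described here were taken as a named list, H3f3a, H3f3b, H2afz, H2afv, H2afx, H2afy, H2afy2, H2afj, H1f0, and H1fx, out of 21938 protein-coding genes of the 19 autosomes and chromosomes X and Y in GENCODE release M21 for mm10. All 10 lie on autosomes. The study asked whether loss of the short histone H2A variant H2A.B changes chromatin in male germ cells. Live haploid spermatids were sorted by DNA content from 2-month-old non-mated males of 2 sibling pairs, each with 1 KO and 1 WT animal. KO males (ΔH2A.B/Y) carry CRISPR/Cas9-made disruptions of the 3 X-linked genes H2afb1, H2afb2, and H2afb3 and were backcrossed to C57BL/6J, and WT males (+/Y) were their brothers. AutoCUT&RUN, in which an antibody tethers a nuclease that releases the bound chromatin as DNA fragments, was run with antibodies against 3 histone modifications, H3K4me3, H3K27me3, and H3K9me3, and with IgG as the control, which gave 16 libraries in 8 groups of 2.

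Replication-dependent histones are made in S phase from clustered genes, whereas the replacement variants are made throughout the cell cycle and in cells that no longer divide, and they enter chromatin independently of DNA synthesis. Spermatids have stopped dividing and go on to exchange most of their histones for protamines. H3K4me3 marks the starts of active and poised genes, H3K27me3 is laid down by Polycomb at silenced developmental genes, and H3K9me3 marks constitutive heterochromatin and repeats.

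The values below are distinct fragments, that is, each combination of chromosome, start, and end counted once per library, and a level in CPM is the number of such fragments per 1000000 distinct fragments of that library. Depth ranged from 159611 to 270598 distinct fragments in the IgG libraries, from 784360 to 3394830 in the H3K4me3 libraries, from 200457 to 3806026 in the H3K27me3 libraries, and from 5009169 to 6746382 in the H3K9me3 libraries. A level of 3 fragments corresponded to between 0.884 and 3.82 CPM in the H3K4me3 libraries and to between 11.1 and 18.8 CPM in the IgG libraries, so IgG levels of single genes were barely resolved. Fragment ends between the guide RNA cut sites numbered 0 in H2afb1, 0 in H2afb2, and 1 in H2afb3 over the 8 KO libraries, and 1, 4, and 3 over the 8 WT libraries. The study's text describes 1 KO strain in which one of the 3 genes has only small deletions, so sequence between the cut sites remains in KO. Its genotyping primer for the first of these deletions is that of H2afb3, where the 1 KO fragment end fell. At the starts of 8 spermatid marker genes, the summed H3K4me3 level ranged from 85.4 to 139 CPM over the 4 libraries, and that of 5 spermatocyte markers from 49.7 to 65.3 CPM. It was at most 8.92 CPM for 4 spermatogonial markers, 4.45 CPM for 4 Sertoli cell markers, 1.77 CPM for 4 Leydig cell markers, and 2.65 CPM for 4 blood and endothelial markers. Sums grow with the number of genes in a list. The median level per gene ranged from 10.2 to 17.4 CPM for the spermatid and from 10.2 to 16.2 CPM for the spermatocyte markers, so these lists were not separated per gene. The lowest counts in them over the 4 libraries were 11 fragments at Prm1 and 3 at Spo11.

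Of the 10 genes, 8 carried H3K4me3 at their starts above the level that IgG allowed. H2afy was at that limit around its outermost start but held more H3K4me3 just inside the gene, and H2afy2 had almost none at its start. H2afy2 carried H3K27me3 at its start instead, in every library. H3K9me3 amounted to at most 8 fragments over 4 libraries at any of the starts except that of H2afv, where its level was not measurably above IgG. In the window of 1 kb on either side of the gene start, each of the 9 genes other than H2afy2 had a higher H3K4me3 level in all 4 H3K4me3 libraries than in any of the 4 IgG libraries. The same separation was seen at 84.2% of the 12886 genes with at least 10 fragments over these 8 libraries, so the count for these genes was near what most such genes showed. It asks little, because IgG held at most 3 fragments over its 4 libraries at these starts and H3K4me3 carried them past the filter. No IgG fragment fell at H3f3b, H2afz, H2afx, H2afy, or H2afj, where any H3K4me3 fragment in each library was enough. When repeated coordinates were counted each time instead of once, the separation was seen at 5 of the 9 genes and at 59.8% of the 16352 genes tested.

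**Figure D1:**
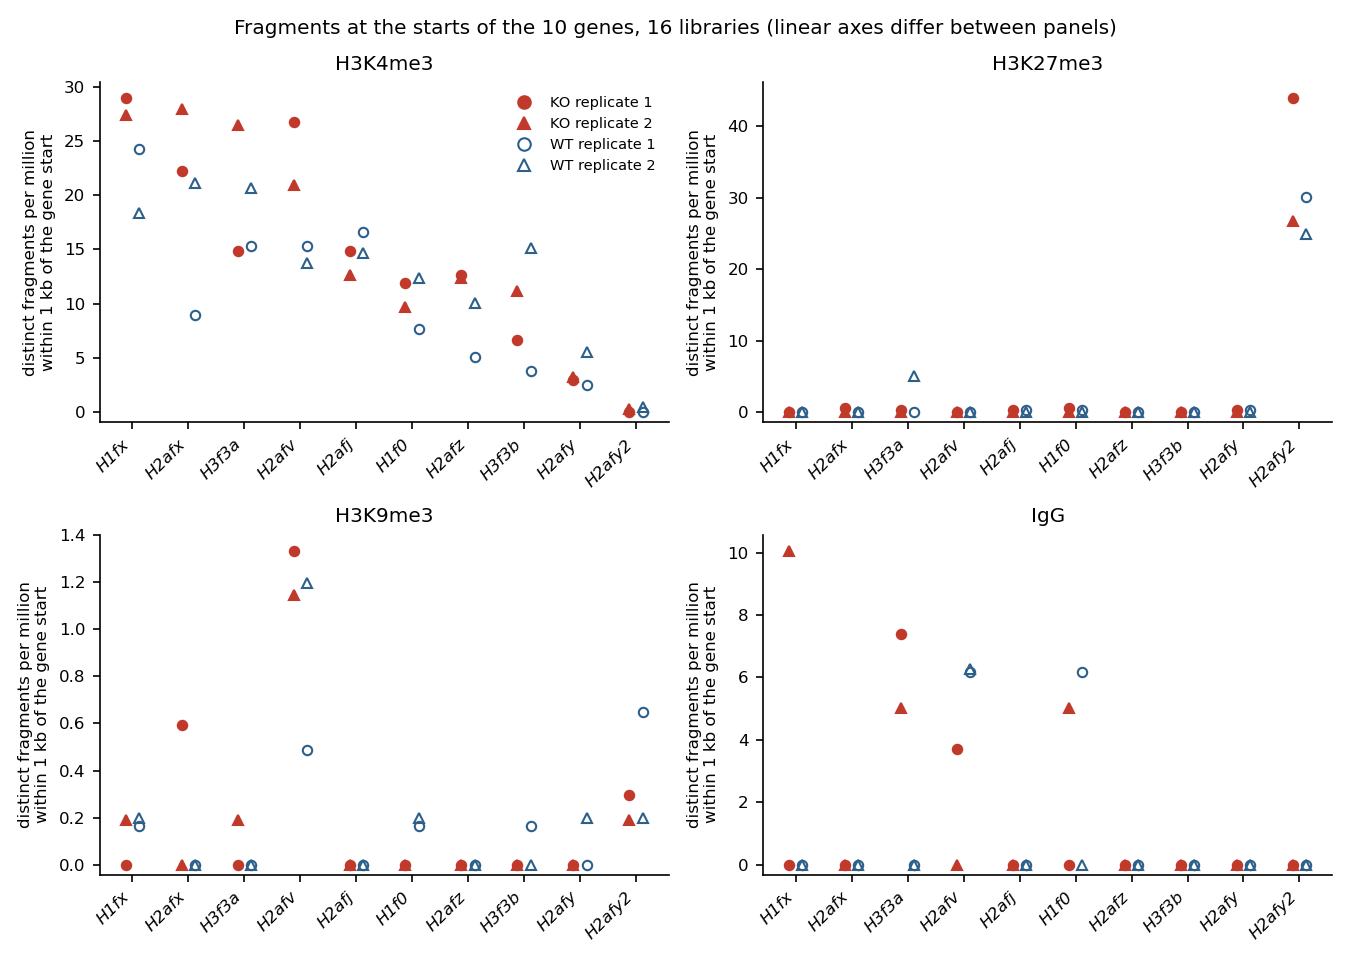
Level of distinct fragments in CPM within 1 kb of the gene start for each of the 10 genes, in order of their mean H3K4me3 level, with 1 panel per antibody and 1 point per library (filled, KO; open, WT; circles, replicate 1; triangles, replicate 2). The vertical axes are linear and differ between panels. H2afy2 stands apart with 24.9 to 43.9 CPM of H3K27me3 and at most 0.458 CPM of H3K4me3, and the IgG points above 0 rest on 1 or 2 fragments each.

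The highest mean H3K4me3 level at a start belonged to H1fx, a single-exon gene for a somatic linker histone (chr6:87980421-87981637, minus strand). H1fx had 28.9 and 27.4 CPM in the KO libraries and 24.2 and 18.3 CPM in the WT libraries. Over the 4 libraries its mean was 24.7 CPM ± 4.69 (SD, n = 4), and it lay between the 85.8th and 95.9th percentiles of all genes. Pooled over 4 libraries each, its H3K4me3 level was 9.80 times that in IgG, with a 95% exact binomial interval from 2.68 to 81.5 that covers counting error only.

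H2afx, which encodes H2A.X, the variant that is phosphorylated around DNA breaks and over the sex chromosomes in meiosis, came next in the order (chr9:44334694-44336077, plus strand, 1 exon). Its levels were 22.3 and 28.0 CPM in KO and 8.92 and 21.1 CPM in WT, with a mean of 20.1 CPM ± 8.01 (SD, n = 4). No IgG fragment fell in its window, so its pooled level was at least 6.09-fold higher than IgG, taking 3 fragments over the 4 IgG libraries as the limit. WT replicate 1 was the only library of the 4 below 20 CPM, and it was also the shallowest, with 7 fragments in the window.

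H3f3a and H3f3b encode the identical protein H3.3, the replacement form of histone H3. H3f3a (chr1:180800832-180813943, minus strand) had 14.8 and 26.5 CPM in KO and 15.3 and 20.6 CPM in WT. H3f3b (chr11:116021912-116027962, minus strand) had 6.68 and 11.2 CPM in KO and 3.82 and 15.1 CPM in WT, a wider relative spread than at any other marked start but resting on only 3 to 38 fragments. H3f3a was higher in all 4 libraries, by 10.1 CPM ± 4.24 (SD, n = 4, exact two-sided permutation p = 0.125 with libraries kept as pairs, the smallest p that 4 pairs allow). This difference depended on the region counted. H3f3b has a second start, that of its principal transcript, 3458 bp inside the gene, and around the principal starts H3f3a exceeded H3f3b in 3 of 4 libraries by 2.58 CPM ± 3.75 (SD, n = 4, exact p = 0.25). Over the gene bodies H3f3b was the higher in all 4 libraries, at 7.56 against 4.55 CPM per kb (exact two-sided permutation p = 0.125, n = 4). That order holds per kb only, because the H3f3a body is 13112 bp long and the H3f3b body 6051 bp. In fragments the H3f3a body held more in every library, with 77 and 253 in KO and 37 and 130 in WT. The H3f3b body held 67 and 177 in KO and 24 and 110 in WT.

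H2A.Z has the 2 genes H2afz and H2afv, whose products differ at only a few residues and which sit at nucleosomes flanking active starts. H2afv (chr11:6427229-6444443, minus strand) had 26.7 and 20.9 CPM in KO and 15.3 and 13.8 CPM in WT. H2afz (chr3:137864487-137866922, plus strand) had 12.6 and 12.4 CPM in KO and 5.10 and 10.1 CPM in WT. H2afv was above H2afz in all 4 libraries, and the difference, H2afz minus H2afv, was -9.13 CPM ± 4.32 (SD, n = 4, exact two-sided permutation p = 0.125). Over the gene bodies, where H2afv is far longer, the density of H3K4me3 fragments in CPM per kb was higher at H2afz, at 5.36 against 1.26.

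Of the remaining genes, H2afj, which encodes an H2A that differs from canonical H2A mainly near its C terminus (chr6:136808244-136810074, plus strand), varied least among the 9 relative to its mean, with 14.8 and 12.7 CPM in KO and 16.6 and 14.7 CPM in WT. H1f0, the gene of the linker histone H1.0 of resting and differentiated cells (chr15:79028450-79030504, plus strand, 1 exon), had 11.9 and 9.72 CPM in KO and 7.65 and 12.4 CPM in WT. H1fx exceeded it in all 4 libraries, by 14.3 CPM ± 5.59 (SD, n = 4, exact two-sided permutation p = 0.125).

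The macroH2A genes H2afy and H2afy2, whose products carry a large non-histone domain and are linked to repressed chromatin, had the lowest levels. H2afy (chr13:56073619-56136361, minus strand) had 2.97 and 3.24 CPM in KO and 2.55 and 5.50 CPM in WT, on 2 to 12 fragments. No IgG fragment fell in this window, but the pooled level of 3.76 CPM did not exceed the 3.79 CPM that 3 IgG fragments make, so no fold over IgG is given. Around its principal start, 730 bp further in, it had 6.68 and 3.83 CPM in KO and 5.10 and 7.34 CPM in WT, and no IgG fragment fell there. In the 3 kb after the outermost start, H3K4me3 amounted to 100 fragments over the 4 libraries (10.6 to 15.6 CPM) and IgG to 0. The limit above thus applies to the window around the outermost start. H2afy2 (chr10:61738665-61784147, minus strand) had 0 and 1 fragments in KO and 0 and 1 in WT. Its pooled count of 2 fragments is below the 3 fragments that a count of 0 allows, so no H3K4me3 was detectable there at this depth.

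The order of the means was H1fx, H2afx, H3f3a, H2afv, H2afj, H1f0, H2afz, H3f3b, H2afy, and H2afy2. Neighbours in that order were mostly not separated by their spread, since the first of a pair was higher in all 4 libraries only for H2afj above H1f0, H3f3b above H2afy, and H2afy above H2afy2. Starts of other annotated transcripts lie within 1 kb of 6 of the genes and share fragments with them, namely predicted miRNA genes at H2afx, H2afj, and H1fx and antisense RNAs at H3f3a (167 bp away), H2afz (113 bp), H2afx (308 bp), H1f0 (162 bp), and H1fx (754 bp). CUT&RUN fragments carry no strand, so the members of such a pair cannot be told apart.

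Starts of replacement variant genes can also be set beside other gene groups. The median H3K4me3 level of the 10 genes lay between 8.29 and 14.2 CPM in the 4 libraries. The corresponding range was 2.75 to 3.82 CPM for all 21938 genes, 4.71 to 10.2 CPM for 67 clustered histone genes, and 13.4 to 18.5 CPM for the 82 ribosomal protein genes. The clustered histone genes were taken by name, so replication-dependent and testis forms are together in that list. For H3K27me3, the clustered histone genes had library medians from 4.99 to 8.43 CPM, and the 10 genes from 0 to 0.263 CPM. The 4.99 CPM is a median of 1 fragment, in the shallow WT replicate 2 library. The 5 other genes with the most similar profile over all 16 libraries, by Euclidean distance of log2(CPM + 1) from the median of the 10 genes, were Acsl6 (0.327), Bmp2k (0.329), Gm43720 (0.405), Crebbp (0.412), and Tatdn2 (0.437).

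H3K4me3 spread well beyond the start at several of the genes. Domains were taken as runs of 500-bp bins with at least 10 fragments over the 4 libraries, allowing 1 bin below that, within 10 kb of the start. This threshold was chosen after the data had been seen. Of all genes, 11268 had such a domain at the start, with a median width of 3500 bp. Wide domains were found at H2afz (14500 bp), H1fx (14000 bp), H3f3b (13500 bp), and H3f3a (9000 bp). These widths are not those of single genes throughout, because the domain of H2afz runs over the start of Dnajb14, 3188 bp downstream, and that of H3f3b over the start of Unk, 2360 bp upstream. The domains of H3f3a and H1fx held no other protein-coding start and were at the 88.9th and 98.4th percentiles of width. Those of H1fx and H2afz reached the 10-kb limit of the search, so their full widths were not measured. The domains of H1f0 (4500 bp), H2afv (4000 bp), H2afj (3500 bp), and H2afy (3000 bp) were near the median, and that of H2afy began 500 bp inside the gene.

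The shape also differed among the genes. At H3f3b, the kilobase centred on the first start held 26 fragments over the 4 libraries, and the kilobase centred on the second start held 71. The densest 500-bp bin of H3f3b was at neither start but from 5500 to 6000 bp, near the gene end, with 53 fragments. At H1f0, 154 fragments lay in the 3 kb before the start and 47 in the 3 kb after it. The 3 kb before it also hold the start of a noncoding RNA gene, Gm17753, 2668 bp away. RefSeq places the H1f0 start at -238 bp from the one used here. In those 3 kb after the H1f0 start, H3K27me3 was found with 23 and 5 fragments in KO and 20 and 1 in WT, or 4.99 to 7.02 CPM, most densely between 2.5 and 3 kb, which is past the end of the gene. IgG had 1 fragment in each of 2 libraries there, or 5.03 and 6.16 CPM, so the H3K27me3 and IgG libraries overlapped. At the H1f0 start itself H3K27me3 amounted to 3 fragments over the 4 libraries.

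**Figure D2:**
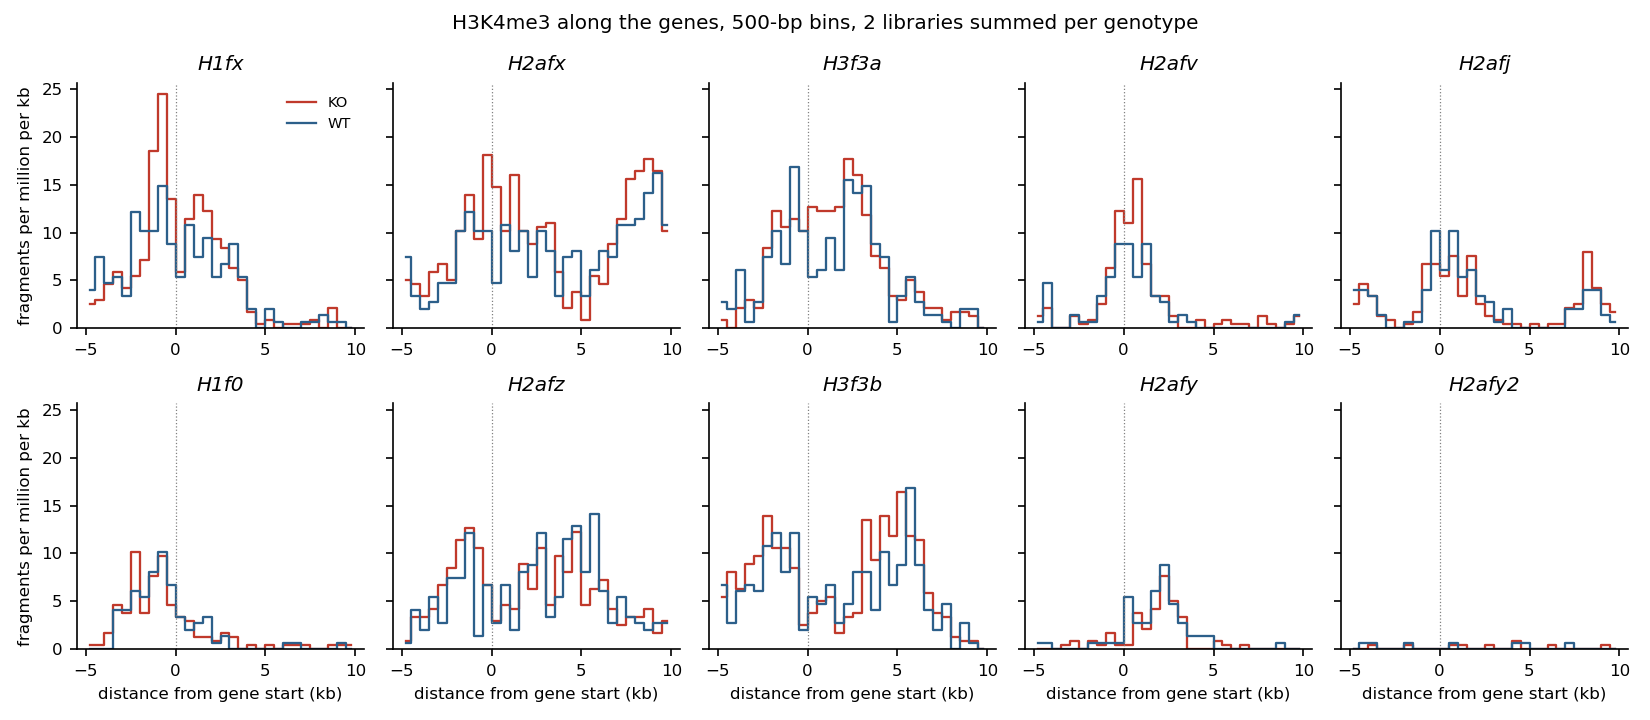
H3K4me3 level in CPM per kb in 500-bp bins from 5 kb before to 10 kb after the start of each gene (dotted line), with the 2 KO libraries summed in red and the 2 WT libraries summed in blue. Broad signal spans H2afx, H3f3a, H3f3b, H2afz, and H1fx, signal at H1f0 lies mainly before the start, and the H2afy2 panel is nearly empty.

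H2afy2, the gene of macroH2A2, was the exception for both marks. At its start, H3K27me3 numbered 167 and 19 fragments in KO and 87 and 5 in WT, which were 43.9 and 26.7 CPM in KO and 30.1 and 24.9 CPM in WT. These values lay between the 90.5th and 95.7th percentiles of all genes. No IgG fragment fell in the window, and the pooled level was at least 9.63-fold higher than IgG on the limit of 3 fragments. All 4 H3K27me3 libraries were above all 4 IgG libraries, as at 63.9% of the 6706 genes with enough fragments (32.8% of 13040 genes with every deposited fragment counted), and at the other 9 genes H3K27me3 was found with at most 3 fragments over the 4 libraries.

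Along H2afy2 the 2 marks occupied separate places. Within 3 kb of the start there were 606 H3K27me3 and 6 H3K4me3 fragments over 4 libraries each. Between 22 and 28 kb into the gene the counts were 5 and 211, respectively. In that internal region, which covers the end of the long first intron and exon 2 (26193 to 26423 bp from the start, chr10:61757724-61757954), H3K4me3 amounted to 37 and 83 fragments in KO and 21 and 70 in WT, or 27.5 and 24.4 CPM in KO and 26.8 and 32.1 CPM in WT. KO and WT overlapped there. GENCODE lists no start of another gene from 21 to 29 kb into H2afy2. In the 19 kb between the regions, H3K4me3 fell to 23 fragments over the 4 libraries.

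**Figure D3:**
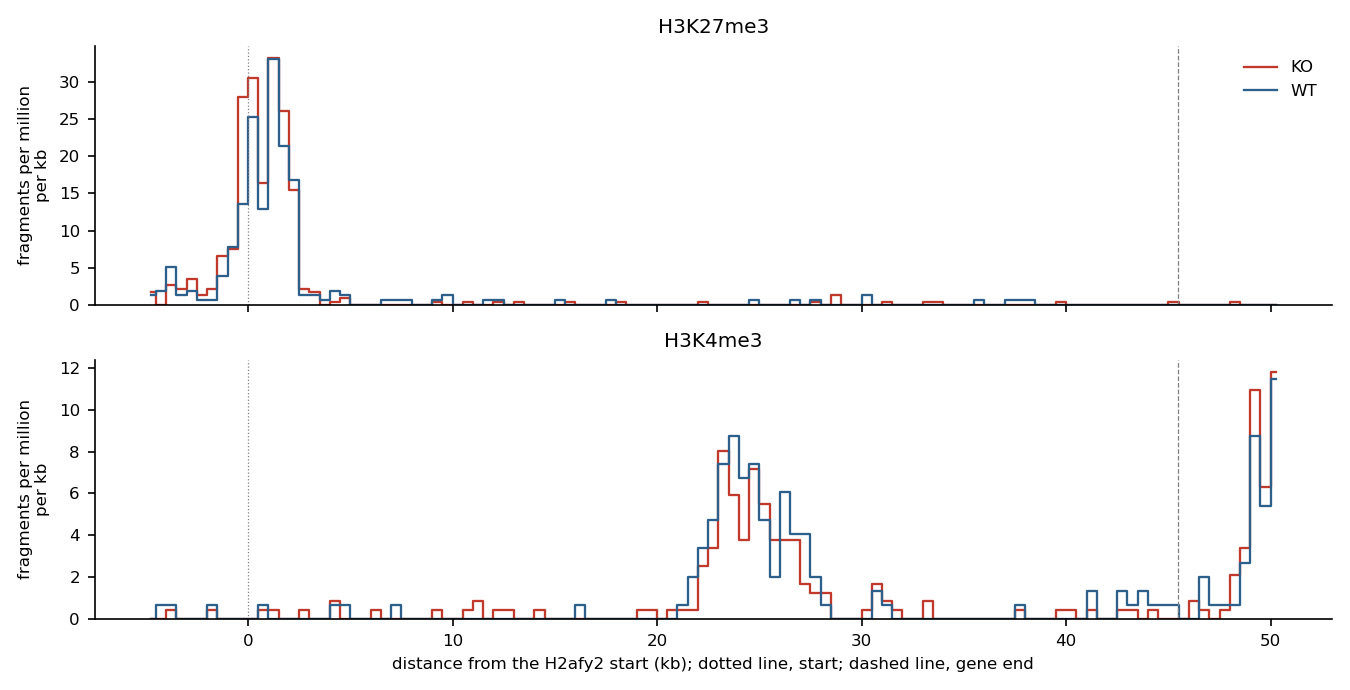
H3K27me3 (top) and H3K4me3 (bottom) levels in CPM per kb in 500-bp bins along H2afy2, with distance from the start in kb (dotted line, start; dashed line, gene end), summed over 2 KO (red) and 2 WT (blue) libraries. H3K27me3 peaks within 3 kb of the start, with 606 of its fragments there, and H3K4me3 peaks from 22 to 28 kb into the gene, with 211, apart from signal that begins past the gene end.

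H2afv was the gene with the most H3K9me3 fragments at its start, with 9 and 6 in KO and 3 and 6 in WT (0.488 to 1.33 CPM). IgG had 3 fragments there over 4 much shallower libraries, and the pooled H3K9me3 level was 0.273 times that in IgG (95% exact binomial interval 0.0830 to 1.42), so no excess over IgG was measurable. The start of H2afv was still between the 82.9th and 93.4th percentiles of all genes for H3K9me3. Over the whole gene body there were 59 and 28 fragments in KO and 48 and 39 in WT. They were spread through the gene, with 137 beyond the first 3 kb, and 54 more lay from 3 to 1 kb before the start. Beyond the first 3 kb the H3K9me3 libraries had 4.20 to 6.97 CPM and the IgG libraries 0 to 7.39 CPM from 2 fragments in all, so they overlapped there too.

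Promoter sequences of 9 of the 10 genes were found in the RefSeq promoter table of GRCm38.p6, which holds 250 bases before and 50 after each start. No entry matched H2afx. The median promoter of the 32817 in the table held 7 CpG dinucleotides, and the 9 held between 17 (H2afj) and 40 (H1fx). CCAAT, searched on both strands (CCAAT or ATTGG), was found in 37.4% of all promoters and in 6 of the 9. At least 3 matches, which 3.37% of all promoters had, were found at H3f3b (4), H2afv (4), H2afz (3), and H2afj (3). GGGCGG (or CCGCCC) was in 35.6% of all promoters and in 7 of the 9, with 4 non-overlapping matches at H3f3a. TATAAA (or TTTATA) was in 13.6% of all promoters and, of the 9, in H3f3b alone. These are matches of letters only.

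The stretches before the starts of 4 marked genes that no GENCODE exon covers, and the 120 bases before the start of H2afy2, are shown as the sequences in front of H3K4me3-marked starts and of the H3K27me3-marked one. The stretch of H3f3a lies before its RefSeq start, which is 338 bp inside the gene, and not before the outermost start used for the counts. Capitals mark the 3 motifs on either strand, and the letters run 5′ to 3′ on the strand of the gene. They are chr3:137864375-137864486 (plus strand, H2afz), chr11:6444444-6444593 (minus, H2afv), chr6:136808098-136808243 (plus, H2afj), chr1:180813633-180813755 (minus, H3f3a), chr10:61784148-61784267 (minus, H2afy2), and 30 bases at the TATAAA match of the second start of H3f3b, chr11:116024514-116024543 (minus).
H2afz: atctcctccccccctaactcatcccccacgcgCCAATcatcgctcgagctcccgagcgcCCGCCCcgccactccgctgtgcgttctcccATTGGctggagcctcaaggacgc
H2afv: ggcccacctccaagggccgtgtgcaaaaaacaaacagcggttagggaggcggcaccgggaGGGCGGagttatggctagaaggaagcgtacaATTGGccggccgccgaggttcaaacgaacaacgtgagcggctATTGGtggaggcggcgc
H2afj: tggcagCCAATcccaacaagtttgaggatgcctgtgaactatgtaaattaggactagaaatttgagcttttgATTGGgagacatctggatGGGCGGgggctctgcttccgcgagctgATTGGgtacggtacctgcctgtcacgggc
H3f3a: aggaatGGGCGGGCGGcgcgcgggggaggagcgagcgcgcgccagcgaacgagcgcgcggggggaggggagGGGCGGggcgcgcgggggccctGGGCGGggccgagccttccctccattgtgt
H2afy2: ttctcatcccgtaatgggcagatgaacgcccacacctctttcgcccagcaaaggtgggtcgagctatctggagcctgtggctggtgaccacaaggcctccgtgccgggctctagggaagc
H3f3b: gtgcagcgtctcTATAAAtatggaggcgtc

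The stretches of H2afz, H2afv, and H2afj each hold at least 2 CCAAT matches, that of H3f3a holds GGGCGG matches only, and that of H2afy2 holds none of the 3 motifs. The RefSeq promoter of H2afy2, whose start lies 283 bp further in, does hold 1 CCAAT match, and those of H2afy, H1f0, and H1fx hold none, so the motif did not separate the genes by mark.

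Comparing KO with WT asks whether loss of H2A.B was accompanied by a change at these genes. At gene starts no H3K4me3 difference passed an adjusted p of 0.05 for any of the 9 genes with enough fragments, and H2afy2 was not tested. The background was 0% (0 of 12780 genes by limma-voom with Benjamini-Hochberg adjustment, with 399 at an unadjusted p below 0.05 and 0 by limma-trend). The 9 log2 changes, KO minus WT, ranged from -0.52 (H2afy, SE 0.62) to 0.73 (H2afv, SE 0.36), with 5 above 0. Their median was 0.09, and that of all genes tested was 0.17. The scaling mattered for the direction, because 66.6% of all genes were higher in KO when scaled to the library total and 49.0% when scaled by the median ratio over genes, which moved the median of all genes to -0.01.

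In this H3K4me3 fit at starts, scaled to the library total and without a block, only H2afv of the genes had an unadjusted limma-voom p below 0.05. Its log2 change was 0.73 ± 0.36 (SE), with a Benjamini-Hochberg adjusted limma-voom p of 0.999. With median-ratio scaling its change was 0.54 ± 0.33, in the window of 0.5 kb 0.45 ± 0.42, and with every deposited fragment 0.25 ± 0.41. H2afx and H2afz changed by 0.57 ± 0.38 and 0.54 ± 0.43, and H1fx by 0.47 ± 0.34 (SE). With median-ratio scaling these values were 0.37 at H2afx, 0.37 at H2afz, and 0.26 at H1fx. In the window of 0.5 kb they were 1.06 at H2afx and 0.035 at H2afz, and with every deposited fragment 1.09 at H2afx. At these 4 genes both KO libraries lay above both WT libraries, as they did at 27.8% of the 12780 genes. No member had both KO libraries below both WT libraries, the case at 6.75% of genes.

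At the other 5 starts, taking the first start of each gene, the KO and WT libraries overlapped. H3f3a had a log2 change of 0.09 ± 0.36, or -0.11 with median-ratio scaling, and H1f0 one of -0.07 ± 0.41. H3f3b had -0.14 ± 0.47 at its first start and 0.41 ± 0.37 at its principal start, a region added after the data had been seen. There both KO libraries (17.1 and 20.6 CPM) were above both WT libraries (10.2 and 16.05 CPM), with pair differences of 6.87 and 4.57 CPM (exact two-sided permutation p = 0.333, n = 2). The share of all genes so separated at principal starts was not computed. H2afj had -0.19 ± 0.36 (SE). H2afy had -0.52 ± 0.62, or -2.58 in the window of 0.5 kb, where fewer fragments were counted and the adjusted limma-voom p (Benjamini-Hochberg) was 0.948. Between same-numbered replicates, taken as the sibling pairs, the difference in CPM, KO minus WT, was 11.4 and 7.16 at H2afv, 13.3 and 6.89 at H2afx, 7.51 and 2.28 at H2afz, and 4.71 and 9.05 at H1fx. At H2afj KO was the lower of both pairs, with differences of -1.73 and -2.01 CPM at the start. The difference had opposite signs in the 2 pairs at H3f3a (-0.46 and 5.88), H3f3b at its first start (2.85 and -3.94), H2afy (0.418 and -2.26), and H1f0 (4.22 and -2.66).

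**Figure D4:**
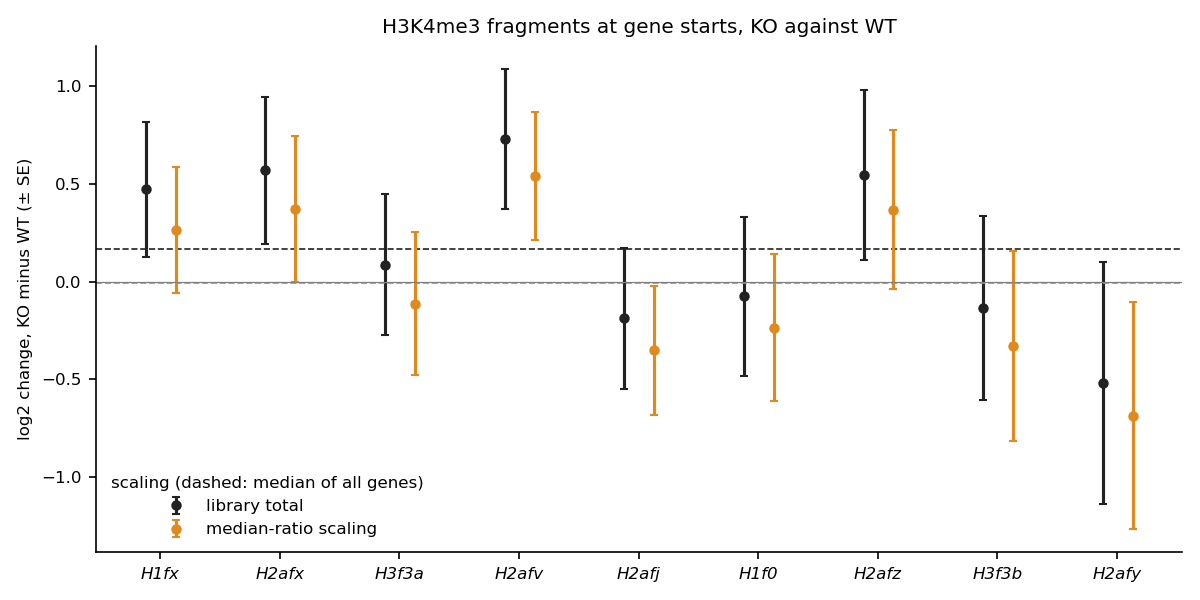
Log2 change in H3K4me3 fragments within 1 kb of the start, KO minus WT, with the standard error, for the 9 genes tested, scaled to the library total (black) or by the median ratio over genes (orange). Dashed lines give the median of all genes tested, 0.17 and -0.01, and no gene passed an adjusted p of 0.05.

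Over gene bodies, none of 18143 genes (0%) passed for H3K4me3, with 51 at an unadjusted p below 0.05 in limma-voom. H2afx had a log2 change of 0.75 ± 0.40 (SE) and H2afy2 one of -0.17 ± 0.30. Both KO libraries were above both WT libraries over the bodies of H2afx (means of 13.6 and 7.70 CPM per kb) and H2afv (1.48 and 1.03 CPM per kb), as over 14.5% of all bodies tested. They were below both over that of H2afj (5.61 and 7.46 CPM per kb), as over 7.78% of bodies. At each of these 3 genes the exact two-sided permutation p was 0.333, the smallest that 2 against 2 libraries allow. Gene bodies include the first 1 kb after the start, so part of these fragments had already been counted at the starts. The H2afx body is only 1384 bp long. Beyond the first 3 kb of H2afv, the KO libraries (0.157 and 0.332 CPM per kb) overlapped the WT libraries (0.269 and 0.355 CPM per kb). Without the first 1 kb, the log2 body change of H2afv was -0.06 ± 0.53 (SE), against 0.40 ± 0.36 with it. That of H2afx without it was 0.88 ± 0.68 (SE). For H3K27me3, 0% of 6492 starts and 0% of 13540 bodies passed, with 151 and 7 at an unadjusted p below 0.05 and 0 starts by limma-trend. The H2afy2 start changed by 0.41 ± 0.56 and its body by -0.01 ± 0.44 on the log2 scale. Its KO replicate 1 held 167 of the 278 H3K27me3 fragments at the start, and without that library the change at the start was -0.13. For H3K9me3, 0% of 4286 starts and 0% of 17263 bodies passed, with 74 and 97 at an unadjusted p below 0.05 and 0 starts by limma-trend, and H2afv changed by 0.67 ± 0.65 at its start and by -0.14 ± 0.51 over its body. With the sibling pair as a block, 45 bodies passed for H3K9me3 (38 higher and 7 lower in KO), and 1 start passed for H3K27me3, lower in KO, none of them among the 10 genes.

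Small fragments, at most 120 bp long, come from sub-nucleosomal particles, and large ones, at least 150 bp, from nucleosomes. Summed over the 10 starts, H3K4me3 libraries held 83 small and 97 large fragments in KO replicate 1, 190 and 289 in KO replicate 2, 18 and 57 in WT replicate 1, and 61 and 202 in WT replicate 2. The small share was thus 46.1% (95% Wilson interval 39.0 to 53.4) and 39.7% (35.4 to 44.1) in KO and 24.0% (15.8 to 34.8) and 23.2% (18.5 to 28.7) in WT. Both KO libraries were higher, with ratios of small to large of 0.757 ± 0.140 for KO against 0.309 ± 0.0098 for WT (SD, n = 2). The same ratio over all gene starts came to 0.637 ± 0.026 for KO and 0.367 ± 0.061 for WT, and over the whole genome 0.585 ± 0.073 and 0.316 ± 0.012 (SD, n = 2). In IgG libraries the genome-wide ratio was also higher in KO, at 1.52 and 1.31 against 1.08 and 0.939. A shift in fragment length was therefore present in the whole libraries, and its part in the values of these genes was not tested.

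**Figure D5:**
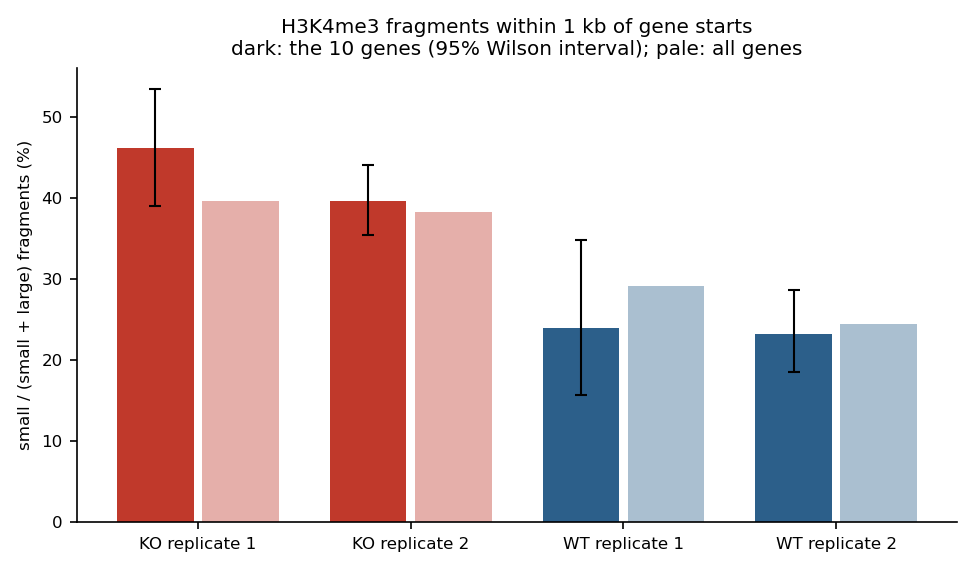
Small fragments as a percentage of small plus large H3K4me3 fragments within 1 kb of gene starts, for the 10 genes (dark bars, with 95% Wilson intervals covering counting error only) and for all genes (pale bars), in 2 KO (red) and 2 WT (blue) libraries. The dark bars reach 46.1% and 39.7% in KO and 24.0% and 23.2% in WT, and the pale bars follow the same order of genotypes.

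Gene by gene, small to large ratios were compared after each library was centred on the median over genes, which removes the shift shared by the library. Of 9864 genes with at least 10 small and 10 large fragments, 1 passed (0.0101%, weighted limma with Benjamini-Hochberg adjustment), and it was none of the 8 genes of the list that were tested. H2afx had the largest log2 change of the 8 with weights, at 1.07 ± 0.57 (SE), with an unadjusted limma p of 0.0596 and a Benjamini-Hochberg adjusted p of 0.991. It had 12 small and 16 large fragments in KO replicate 1 and 45 and 41 in KO replicate 2, against 2 and 4 in WT replicate 1 and 7 and 34 in WT replicate 2. Without weights its change was 0.64, below those of H2afz (1.18) and H1f0 (0.99), and without WT replicate 2 it was 0.36. The other 7 ranged, with weights, from -0.37 (H2afz, SE 0.74) to 0.89 (H1f0, SE 0.75).

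Replacement histones are handled by dedicated chaperones and remodellers, and 35 genes of such factors were examined for H3K4me3 at their starts. All 35 had enough fragments, 0 passed the adjusted threshold in limma-voom, and 23 were higher in KO with a median log2 change of 0.11, set beside 66.6% and 0.17 for all genes. The smallest p belonged to Ep400, the ATPase of a complex that exchanges H2A.Z, with 21.5 and 25.6 CPM in KO and 11.5 and 11.5 CPM in WT, and a Benjamini-Hochberg adjusted limma-voom p of 0.999. Both KO libraries were above both WT libraries at 12 of the 35 and below them at 2, set beside 27.8% and 6.75% of all genes tested. The genes named here have the smallest p of the 35, so their own separation is a description. Dek, an H3.3 chaperone, changed by 0.92 ± 0.47, Ubn2, a subunit of the HIRA complex that deposits H3.3, by 0.62 ± 0.36, and Actl6a, an actin-related subunit of several remodellers, by -1.06 ± 0.75 (SE), and none of these passed. The KO libraries lay above the WT libraries at Dek (17.1 and 11.2 against 3.82 and 8.25 CPM) and Ubn2 (19.3 and 28.3 against 14.0 and 15.1 CPM) and below them at Actl6a (0.742 and 2.06 against 3.82 and 3.21 CPM).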

How the data were processed

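The authors aligned paired-end reads of 25 bases to mm10 with Bowtie2 (version 2.3.4.3 in the submitters' processing notes) and deposited, for each library, a list of fragments giving where each begins and ends and how long it is, unscaled and unpooled. The deposited values are therefore positions and lengths, not counts. Although duplicate removal is described, repeated coordinates remained (33.6% to 83.4% of fragments), so each coordinate pair was counted once.

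Fragments were assigned by midpoint to windows of 1 kb on either side of the outermost GENCODE start and to gene bodies. KO and WT were compared per antibody with limma-voom 3.58.1 in R 4.3.3, scaled to the library total, for genes with at least 10 fragments over 4 libraries, with Benjamini-Hochberg adjustment over all genes tested. Ratios of small to large fragments used weighted limma with 0.5 added to each count. Fits were tested on simulated data. The model planned against IgG did not recover simulated differences in such shallow controls, so counts with a limit of 3 fragments and the separation of libraries were used instead. The median-ratio scaling and the block planned against IgG were not run for that reason.

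Replicate numbers were taken to mark the sibling pairs, since the study used 2 such pairs as replicates. The labels name no pair. Same-numbered libraries share codes in their labels, so pair and code cannot be told apart. Same-numbered libraries deviated together (correlations over genes at starts 0.242 for H3K4me3, 0.298 for H3K27me3, and 0.196 for H3K9me3). With 2 libraries per group, single values cannot give an exact two-sided p below 0.333. All p-values cover the spread between 2 animals per genotype, whose libraries also differ in the label codes.

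All 10 genes are named. Of the chaperone list the 4 with the smallest p are named, and of other genes the 5 nearest in profile. The genes and lists were chosen with earlier results of these data known. Intervals and limits cover counting error only, since the lists hold no molecular identifiers. The width of the H3K4me3 domain at H2afx is not reported here.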

Additional observations from a re-analysis of the deposited data

How the results depend on the processing

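No gene of the list passed the adjusted threshold in KO against WT under any alternative that was run. Their smallest adjusted p under an alternative was 0.623 in limma fits with Benjamini-Hochberg adjustment. For 23 log2 changes (H3K4me3 starts and ratios, the H2afx and H2afy2 H3K4me3 bodies, H3K27me3 at H2afy2, and H3K9me3 at H2afv), 120 values were recomputed with another setting, and 9 changed sign. Body changes outside these 23 also turned, such as that of H3f3a for H3K27me3 (-0.83, and 0.055 with the sibling pair as a block) and that of H2afz for H3K4me3 (-0.041, and 0.057 without the first 1 kb). At starts, the change of H3f3a became -0.0016 with every deposited fragment and -0.11 with median-ratio scaling. That of H3f3b became 0.11 with limma-trend and 0.41 at the principal start, a choice added after the data had been seen, and that of H1f0 became 0.10 with limma-trend. In the small to large ratio, with every deposited fragment H3f3b became 0.59, H2afz 1.25, and H2afj -0.50, and H2afz became 1.18 without weights. Leaving out 1 library at a time turned the sign of 20 of 91 values of the 23 changes.

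The log2 changes at H3K4me3 starts then ranged from -0.31 to 0.48 at H3f3a, -0.66 to 1.14 at H3f3b, -0.766 to 0.081 at H2afy, and -0.26 to 0.35 at H1f0, and kept their sign at H2afz (0.30 to 1.14), H2afv (0.53 to 0.89), H2afx (0.27 to 1.35), H2afj (-0.33 to -0.040), and H1fx (0.21 to 0.61). Ratios ranged from -0.080 to 0.713 at H3f3a, -0.24 to 1.13 at H3f3b, -1.19 to 2.18 at H2afz, -0.22 to 0.68 at H2afj, and -0.39 to 0.36 at H1fx. H2afy2 ranged from -0.33 to 0.10 for H3K4me3 over the body and, for H3K27me3, from -0.13 to 0.56 at the start and from -0.42 to 0.11 over the body. The H3K9me3 change at H2afv ranged from 0.036 to 1.22 at the start and from -0.54 to 0.16 over the body. In the window of 0.5 kb, the H3K4me3 change was 1.06 at H2afx, 0.035 at H2afz, and -0.47 at H2afj.

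Over all genes, the sibling pair as a block gave 1 call for H3K27me3 starts and 45 for H3K9me3 bodies, and changed no other count of adjusted calls and no call of the 10 genes. It raised the number of genes at an unadjusted p below 0.05 from 399 to 990 at H3K4me3 starts, 51 to 973 over H3K4me3 bodies, 7 to 322 over H3K27me3 bodies, 74 to 262 at H3K9me3 starts, and 97 to 1246 over H3K9me3 bodies, and lowered it from 151 to 133 at H3K27me3 starts. Without a filter, 1 H3K27me3 start passed. With every deposited fragment, 3 H3K27me3 bodies and 4 ratios passed, and without weights 0 ratios did. Leaving out 1 library at a time gave 0 to 9 calls at H3K4me3 starts (9 without WT replicate 2), 0 to 15 at H3K27me3 starts (15 without KO replicate 1), 0 to 5 over H3K27me3 bodies (5 without WT replicate 1), 1 to 53 over H3K9me3 bodies (53 when KO replicate 1 was left out, 16 for WT replicate 2, 5 for KO replicate 2, and 1 for WT replicate 1), and 0 to 2 for ratios. The causes were not tested. Median-ratio scaling and the block were not run against IgG, since the planned model was replaced. Depth limits H3K4me3 at the outermost starts of H2afy2 and H2afy, the WT replicate 2 library for H3K27me3, and all single-gene values in IgG.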
